A study of Rattus norvegicus with 47 samples.

Results

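The genes described are 8 members of the inflammasome pathway: the sensors Nlrp3, Nlrc4, Aim2 and Mefv, the adaptor Pycard, the caspases Casp1 and Casp4, and the pore-forming effector Gsdmd. They were chosen by gene symbol, and all 8 were found, each on 1 probe set of its own, among the 27596 probe sets (20935 symbols) of the table. An inflammasome is a protein platform that myeloid cells assemble when a cytosolic sensor detects microbial products, foreign or misplaced DNA, ion fluxes or a disturbance of the cytoskeleton. The sensor recruits pro-caspase-1, directly or through Pycard (ASC), and active caspase-1 cuts the precursors of the cytokines IL-1β and IL-18 and the protein gasdermin D. The released gasdermin fragment forms pores in the plasma membrane, and caspase-4 (Casp11 in older rodent nomenclature) cuts gasdermin D after it has bound bacterial lipopolysaccharide. In the blood these genes are expressed in neutrophils and monocytes, and Aim2 is also expressed in lymphocytes. Which cells their signal came from in these samples was not tested.

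Blood mRNA was measured in 8 male spontaneously hypertensive rats (SHR), an inbred hypertensive strain, all 16 weeks old. A silicon-coated thread occluded the middle cerebral artery (MCA occlusion) under isoflurane anaesthesia, and it was withdrawn for reperfusion, under a second anaesthesia, between the 1 h and the 2 h sample. Each rat was sampled repeatedly: the 0 h sample preceded anaesthesia, and samples followed at 1, 2, 3, 6 and 24 h post occlusion, with 8 arrays per time point except 6 h, which had 7. No sham-operated or unoperated group was analysed here, so stroke, reperfusion, surgery, anaesthesia, repeated bleeding and time of day cannot be told apart. The last sample was drawn from the heart after anaesthetic overdose and the earlier ones from a tail vein, so the site of collection and the last time point cannot be told apart either. The values are the authors' mean log2 signal of a probe set per time point with their SD, and a difference of 1 on this scale is a doubling. Single-rat values were left out, because the labels do not tie array columns to rats, so the tests compare group means and take the repeated samples of a rat as independent. The median of the deposited SDs over all probe sets lay between 0.14 and 0.16. Hbb, the beta chain of haemoglobin, had a mean signal of 13.51, where the highest mean of the table was 13.62. RNA was prepared from the heparinized cell pellet.

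Against 0 h, 3 of the 4 sensors rose after MCA occlusion and 1 fell. The adaptor, the caspases and gasdermin D did not stand above their 0 h level at any time point. Nlrp3, Nlrc4 and Mefv were higher than at 0 h at each of the 5 later time points, with largest changes of 1.46, 1.00 and 1.18 on the log2 scale. Aim2, Casp1, Casp4 and Gsdmd were lower at each of them, with largest changes of -1.24, -0.57, -0.94 and -0.27. Pycard passed as lower at the first and the last of these times, and its changes at 2, 3 and 6 h did not pass the test. A change passed where the limma moderated test, fitted to the means and SDs in the table, gave a false discovery rate (FDR) below 0.05 over all probe sets. In this mixed tissue, fewer cells of a type and less RNA per cell cannot be told apart.

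**Figure D1:**
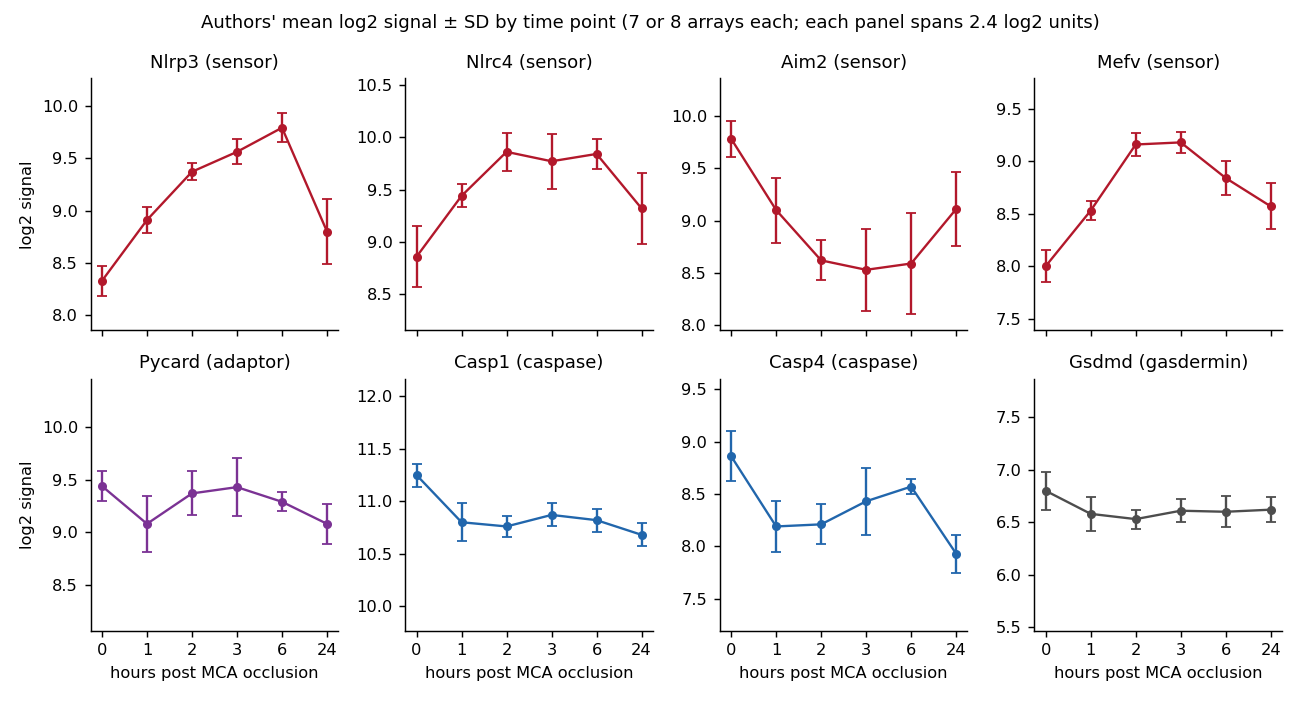
Authors' mean log2 signal (points) with the authors' SD (bars) of the 8 genes at 0, 1, 2, 3, 6 and 24 h post MCA occlusion, with 7 arrays at 6 h and 8 at the other times. Time points are drawn at equal distances and each panel spans the same height, so heights can be compared between panels: Nlrp3, Nlrc4 and Mefv stood above their 0 h mean throughout, and Aim2, Casp1, Casp4 and Gsdmd below it.

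Over the whole time course, the moderated F-test gave an FDR below 0.05 in 8 of the 8 genes, a threshold that 55.5% of all probe sets passed. At a stricter limit, a p below 5e-07, there were 6 of 8, against 13.5% of all probe sets. This limit was taken from the study's methods but applied to p-values of the fit made here from means and SDs, so passing it is not a call by the study's own test. Pycard and Gsdmd were the genes that missed it. Without the 24 h samples, the count past this limit was 5, and 8 of 8 had an FDR below 0.05. By limma's moderated F-test Nlrp3 had an FDR of 1.01e-19 and Mefv of 3.85e-19, which put them at ranks 129 and 156 of all probe sets. They were followed by Nlrc4 (FDR 2.88e-10), Casp1 (FDR 2.37e-09), Casp4 (FDR 4.29e-09), Aim2 (FDR 6.67e-09), Pycard (FDR 0.00213) and Gsdmd (FDR 0.0209). The median size of the largest change was 0.97 over the 8 genes and 0.24 over all probe sets. By mean signal, Gsdmd lay at percentile 49.3 of all probe sets and the other members between percentiles 81.0 and 96.7. No comparison with probe sets of like signal was made, so the part of signal level in this contrast and in the background shares was not tested.

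At 1 h, 3 of the 8 genes were higher, against 21.7% of all probe sets, and 5 were lower, against 15.4%. At 2 h the counts were 3 higher (21.7% of all probe sets) and 4 lower (18.6%). At 3 h they were 3 higher (27.3%) and 4 lower (19.2%), and at 6 h 3 higher (22.5%) and 4 lower (19.3%). At 24 h, 3 were higher (17.4%) and 5 lower (13.9%). These comparisons share the 0 h samples, so their counts are not independent of each other. Over all probe sets, the share of calls that were rises fell from 58.6% to 40.0% at 1 h, from 58.7% to 47.2% at 3 h and from 55.6% to 37.3% at 24 h with centred means (the median of all probe sets set equal across time points), whereas the counts of the 8 genes were the same with centred means. The count lower at 6 h was 3 with quantile normalized means and also with the variance of the 2 time points compared, and that variance gave 4 lower at 24 h.

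Nlrp3 codes for the sensor that responds to potassium efflux, extracellular ATP and crystals. In the rn5 annotation its probe set covers chr10:45650421-45673915, plus strand. The authors' mean signal of Nlrp3 was 8.33 (SD 0.14) at 0 h, 8.91 (SD 0.12) at 1 h, 9.37 (SD 0.08) at 2 h, 9.56 (SD 0.12) at 3 h, 9.79 (SD 0.14) at 6 h and 8.80 (SD 0.31) at 24 h. The level thus climbed up to 6 h and stood at 24 h between those of 0 and 1 h. The change at 6 h was 1.46 (95% interval 1.28 to 1.63), or 2.74-fold, with an FDR of 5.94e-19. In the order of its 6 levels, 6 and 3 h (difference 0.23, FDR 0.121), 3 and 2 h (0.19, FDR 0.232) and 1 and 24 h (0.11, FDR 0.534) did not differ past the test. The step from 6 to 24 h was -0.99 (interval -1.16 to -0.82, FDR 8.41e-13), and 32.1% of the largest change remained at 24 h. The SD was highest at 24 h (0.31), against at most 0.14 earlier.

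Mefv codes for pyrin, the sensor that is held back by RhoA-dependent kinases and 14-3-3 proteins and that is mutated in familial Mediterranean fever. In the rn5 annotation its probe set covers chr10:10804440-10813964, plus strand. The authors' mean signal of Mefv was 8.00 (SD 0.15) at 0 h, 8.53 (SD 0.09) at 1 h, 9.16 (SD 0.11) at 2 h, 9.18 (SD 0.10) at 3 h, 8.84 (SD 0.16) at 6 h and 8.57 (SD 0.22) at 24 h. Mefv was therefore highest at 2 and 3 h, whose means differed by 0.03 (FDR 0.917). At 3 h it was 1.18 (interval 1.03 to 1.32) above 0 h, or 2.26-fold, with an FDR of 1.87e-18. It was the only one of the 8 genes with a passing step from 3 to 6 h, which was -0.34 (interval -0.49 to -0.19, FDR 0.00325). At the same step Nlrp3 had a difference of 0.23, short of the threshold, and the difference between the 2 genes was not tested.

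Nlrc4 codes for the sensor of bacterial flagellin and type III secretion proteins, which it detects through NAIP partners. In the rn5 annotation its probe set covers chr6:32058923-32081534, plus strand. For Nlrc4 the mean signal was 8.86 (SD 0.29) at 0 h, 9.44 (SD 0.11) at 1 h, 9.86 (SD 0.18) at 2 h, 9.77 (SD 0.26) at 3 h, 9.84 (SD 0.14) at 6 h and 9.32 (SD 0.34) at 24 h. The highest means were those from 2 to 6 h. In the order of the levels, 2 and 6 h (0.02, FDR 0.952), 6 and 3 h (0.07, FDR 0.83), 3 and 1 h (0.33, FDR 0.0502) and 1 and 24 h (0.12, FDR 0.677) did not differ past the test, and 24 and 0 h did (0.46, FDR 0.00195). The change at 2 h was 1.00 (interval 0.77 to 1.23), or 1.99-fold, with an FDR of 6.47e-10, and the change left at 24 h was 0.46.

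Aim2 codes for the sensor of double-stranded DNA in the cytosol. In the rn5 annotation its probe set covers chr13:96469414-96477895, plus strand. Aim2 had a mean signal of 9.78 (SD 0.17) at 0 h, 9.10 (SD 0.31) at 1 h, 8.62 (SD 0.19) at 2 h, 8.53 (SD 0.39) at 3 h, 8.59 (SD 0.48) at 6 h and 9.11 (SD 0.35) at 24 h. It ran opposite to the other sensors, with its 0 h level on top, a trough from 2 to 6 h and a partial return. The change at 3 h was -1.24 (interval -1.55 to -0.93), a 2.36-fold fall with an FDR of 7.49e-09. The trough levels at 2, 3 and 6 h did not differ past the test (FDR 0.951 for 2 and 6 h, 0.895 for 6 and 3 h), nor did those at 24 and 1 h (0.01, FDR 0.99). The step from 1 to 2 h (-0.48, FDR 0.0425) lay close to the threshold, and its FDR was 0.0604 with the ordinary test and 0.0548 with centred means. The return from 6 to 24 h was 0.51 (interval 0.19 to 0.84, FDR 0.0179), and its FDR was 0.0663 with the variance of the 2 time points compared. Its SD of 0.48 at 6 h was the highest of the 8 genes, and its time course had the widest intervals of the group.

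Pycard codes for ASC, the adaptor that links a pyrin-domain sensor to caspase-1. In the rn5 annotation its probe set covers chr1:206460883-206461916, minus strand. For Pycard the mean signal was 9.44 (SD 0.14) at 0 h, 9.08 (SD 0.27) at 1 h, 9.37 (SD 0.21) at 2 h, 9.43 (SD 0.28) at 3 h, 9.29 (SD 0.09) at 6 h and 9.08 (SD 0.19) at 24 h. It was low at 1 and 24 h and near its 0 h level between them. The changes were -0.36 (interval -0.56 to -0.15, FDR 0.00484) at 1 h and -0.37 (interval -0.57 to -0.16, FDR 0.00507) at 24 h. At 2 h the interval of -0.28 to 0.13 and at 3 h that of -0.22 to 0.19 left room for a small change in either direction. No neighbours in the order of its levels differed past the test.

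Casp1 codes for the caspase that processes pro-IL-1β, pro-IL-18 and gasdermin D. In the rn5 annotation its probe set covers chr8:2627408-2636873, plus strand. Casp1 had a mean signal of 11.25 (SD 0.11) at 0 h, 10.80 (SD 0.18) at 1 h, 10.76 (SD 0.10) at 2 h, 10.87 (SD 0.11) at 3 h, 10.82 (SD 0.11) at 6 h and 10.68 (SD 0.11) at 24 h. Most of the fall was present in the first sample after occlusion, and the later levels stayed within 0.19 of each other. The change was -0.44 (interval -0.57 to -0.32, FDR 3.21e-07) at 1 h and -0.57 (interval -0.70 to -0.44, FDR 3.14e-09) at 24 h. None of the 4 steps between neighbouring time points from 1 h on passed the test, and in the order of its levels only 0 and 3 h differed past it (0.38, FDR 3.30e-06).

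Casp4 codes for the caspase of the non-canonical pathway. The annotation on rn5 places its probe set on the unassigned chromosome, with no position. For Casp4 the mean signal was 8.86 (SD 0.24) at 0 h, 8.19 (SD 0.24) at 1 h, 8.21 (SD 0.19) at 2 h, 8.43 (SD 0.32) at 3 h, 8.57 (SD 0.07) at 6 h and 7.93 (SD 0.18) at 24 h. The mean was lower from 1 h on, nearest to its 0 h level at 6 h and lowest at 24 h. In this order only 0 and 6 h differed past the test among neighbours, while 6 and 3 h (0.14, FDR 0.561), 3 and 2 h (0.23, FDR 0.281), 2 and 1 h (0.02, FDR 0.947) and 1 and 24 h (0.26, FDR 0.172) did not, nor did 2 and 24 h (FDR 0.0667). The change was -0.68 (interval -0.89 to -0.46, FDR 2.29e-06) at 1 h, -0.29 (interval -0.51 to -0.07, FDR 0.0298) at 6 h and -0.94 (interval -1.15 to -0.72, FDR 5.55e-09) at 24 h, the last a 1.91-fold fall. The change at 6 h was -0.19 with an FDR of 0.181 when the means were quantile normalized. The step from 6 to 24 h was -0.65 (interval -0.87 to -0.42, FDR 1.29e-05), and it coincided with the change from tail vein to heart blood.

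Gsdmd codes for gasdermin D, whose cut fragment forms the pore. In the rn5 annotation its probe set covers chr7:116765337-116786869, plus strand. Gsdmd had a mean signal of 6.80 (SD 0.18) at 0 h, 6.58 (SD 0.16) at 1 h, 6.53 (SD 0.09) at 2 h, 6.61 (SD 0.11) at 3 h, 6.60 (SD 0.15) at 6 h and 6.62 (SD 0.12) at 24 h. Its changes ran from -0.27 to -0.19, its largest change was the smallest of the 8 genes, and its levels from 1 to 24 h could not be ordered. The change at 2 h was -0.27 (interval -0.41 to -0.13, FDR 0.00182). The changes at 6 h (FDR 0.0247) and 24 h (FDR 0.0397) had FDRs of 0.0697 and 0.0744 when the variance was taken from the 2 time points compared alone. Its largest change was 1.47 times its highest SD, whereas that ratio was 5.44 for Mefv and 4.77 for Nlrp3.

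Between neighbouring time points, Nlrp3, Nlrc4 and Mefv were higher at 2 h than at 1 h, 3 of 8 genes against 4.66% of all probe sets, and Aim2 was lower, 1 of 8 against 4.11%. Reperfusion fell within this interval, and its part in the step cannot be told apart from that of time. From 2 to 3 h, 0 of the 8 passed in either direction, against 1.9% of all probe sets higher and 1.62% lower, by limma's test. Nlrp3 (limma's unadjusted p = 0.027) and Casp4 (0.0398) were the members with an unadjusted p below 0.05, and the count was also 0 under each of the 6 alternatives tried. From 3 to 6 h, Mefv was lower, 1 of 8 against 2.44%, and 0 were higher, against 2.34%. Nlrp3 was the one member with a rise at an unadjusted p below 0.05 by limma's test (0.0106). From 6 to 24 h, Nlrp3, Nlrc4, Mefv and Casp4 were lower, 4 of 8 against 8.68%, and Aim2 was higher, 1 of 8 against 10.2%. With the variance of the 2 time points compared, the counts at this step were 3 lower and 0 higher, as Mefv (FDR 0.0509) and Aim2 (FDR 0.0663) no longer passed. For the sensors this last step ran back towards the 0 h level, and for Casp4 it ran away from it.

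Pairs of time points further apart gave the order of the levels. From 1 to 3 h, Nlrp3, Mefv and Pycard were higher, 3 of 8 genes against 5.6% of all probe sets, and Aim2 was lower, against 4.85%. From 1 to 6 h, Nlrp3, Nlrc4, Mefv and Casp4 were higher, against 8.55%, and Aim2 was lower, against 10.8%. Between 2 and 6 h, Nlrp3 and Casp4 were higher, against 5.17%, and Mefv was lower, against 4.95%. Levels at 24 h lay below those at 2 h for Nlrp3, Nlrc4, Mefv and Pycard, against 7.52% of all probe sets, and above them for Aim2, against 8.7%. They lay below those at 3 h for these same genes and also for Casp1 and Casp4, 6 of 8 against 7.17%, and above them for Aim2, against 6.67%. Between 1 and 24 h, 0 of the 8 passed limma's test in either direction, against 2.6% of all probe sets higher and 3.25% lower. Casp4, with a difference of -0.26, was the member with an unadjusted p below 0.05 by limma's test (0.0196).

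The sequence before the start site is shown for members that moved in opposite ways against 0 h. Nlrp3 and Mefv were higher at each later time point, and Aim2 and Casp1 were lower. The RefSeq promoter table on GRCr8 held 5 of the 8 members, the fifth being Pycard. Each line gives the 250 bases before the annotated start, 5′ to 3′ on the gene's strand, which is plus in all 4, with matches to the motifs listed after them in capitals.
Nlrp3, chr10:44827848-44828097: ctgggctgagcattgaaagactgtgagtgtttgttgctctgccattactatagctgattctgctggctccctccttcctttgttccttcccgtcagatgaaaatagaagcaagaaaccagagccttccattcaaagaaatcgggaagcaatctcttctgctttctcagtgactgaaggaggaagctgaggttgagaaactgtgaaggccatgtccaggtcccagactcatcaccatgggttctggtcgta
Mefv, chr10:12293532-12293781: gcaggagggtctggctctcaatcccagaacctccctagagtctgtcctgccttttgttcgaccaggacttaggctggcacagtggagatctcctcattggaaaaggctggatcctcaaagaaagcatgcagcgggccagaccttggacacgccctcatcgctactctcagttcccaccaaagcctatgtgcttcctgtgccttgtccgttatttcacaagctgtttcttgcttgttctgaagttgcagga
Aim2, chr13:88398372-88398621: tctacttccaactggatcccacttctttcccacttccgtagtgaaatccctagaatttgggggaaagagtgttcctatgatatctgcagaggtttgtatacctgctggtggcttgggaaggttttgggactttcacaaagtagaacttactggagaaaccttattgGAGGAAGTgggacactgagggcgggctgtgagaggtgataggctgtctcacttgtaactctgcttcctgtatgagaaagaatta
Casp1, chr8:10872580-10872829: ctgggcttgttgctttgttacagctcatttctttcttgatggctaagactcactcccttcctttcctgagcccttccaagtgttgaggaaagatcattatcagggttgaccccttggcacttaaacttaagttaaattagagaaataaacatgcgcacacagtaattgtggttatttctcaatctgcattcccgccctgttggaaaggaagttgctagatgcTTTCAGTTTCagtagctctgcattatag

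The motifs searched, on both strands, were the kappaB consensus of NF-κB, the PU.1 motif GAGGAAGT, the C/EBP motif TTGCNNAA, the interferon response motif, the glucocorticoid response motif and the TATA box TATAAA. They were found in 6.33%, 2.04%, 9.22%, 3.41%, 0.373% and 12.9% of the 33469 windows of this length in the table. In Aim2 the PU.1 letters lie from -84 to -77 on the gene's strand. In Casp1 the interferon letters lie from -28 to -19, on the opposite strand and so printed as TTTCAGTTTC. No found motif overlapped another. Nlrp3, Mefv and Pycard held none of these motifs, which says only that these letters are not in these windows. The G and C content of the windows ran from 42% in Casp1 to 52.8% in Mefv, against a median of 51.2% over all windows.

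Markers of blood cell types moved over the same hours, in which 21.7%, 21.7%, 27.3%, 22.5% and 17.4% of all probe sets were higher and 15.4%, 18.6%, 19.2%, 19.3% and 13.9% lower than before occlusion. Of 10 neutrophil markers, the numbers higher than before occlusion were 10, 10, 9, 9 and 7 over the 5 later time points in turn, and Ngp was lower in the last (-0.90). Their median changes were 0.95, 1.47, 1.29, 1.55 and 0.65, and the mean signal over the list was 9.76 before occlusion, then 10.88, 11.35, 11.06, 11.31 and 10.23. The rises of Nlrp3, Nlrc4 and Mefv ran in the same direction as this list and were smaller than its median at each time point. Of 8 monocyte markers, the numbers higher were 1, 3, 3, 3 and 0 and the numbers lower 5, 3, 4, 4 and 3 over these times, with median changes between -0.34 and -0.14. Among them Cx3cr1 changed by -1.45 and Cd14 by 1.84 at 3 h.

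Most markers of B and T cells fell. The 8 B cell markers had median changes of -1.50, -2.00, -2.07, -1.76 and -0.53 over the same times, with 7, 8, 7, 7 and 6 of them lower, and their mean signal of 9.49 before occlusion reached 7.81 at its lowest, 3 h. Pax5 did not pass the F-test over all time points (FDR 0.143). All 8 T cell markers were lower at every later time point, with a median change of -0.53, -0.96, -1.11, -1.25 and -0.72 and a mean signal of 10.02 before occlusion and 8.77 at its lowest, 6 h. Of 6 NK cell markers, 1, 4, 5, 4 and 5 were lower, the first of these counts being near the background share, with median changes of -0.16, -0.47, -0.79, -0.69 and -0.70, while Ncr1 was higher at 1 h (0.24, FDR 0.0335), 2 h (0.22, FDR 0.0446) and 6 h (0.34, FDR 0.00347). The changes of Aim2 at the same times were -0.67, -1.15, -1.24, -1.18 and -0.67, smaller than the B cell medians up to 6 h and next to those of the T cell list. Casp4 had its lowest mean at 24 h (-0.94), when the medians of the B, T and NK cell lists stood at -0.53, -0.72 and -0.70. Of 5 platelet markers, 2, 1, 1, 0 and 3 were higher and 0 lower, with Itga2b at 0.49 at 24 h. Of 7 erythroid probe sets, 2, 0, 1, 0 and 2 were higher and 0, 0, 0, 2 and 0 lower, with Slc4a1 at 0.58 (FDR 5.11e-06) and Epb42 at 0.45 at 24 h. The medians of both lists lay between -0.12 and 0.26. The part of cell composition in the changes of the 8 genes was not tested.

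**Figure D2:**
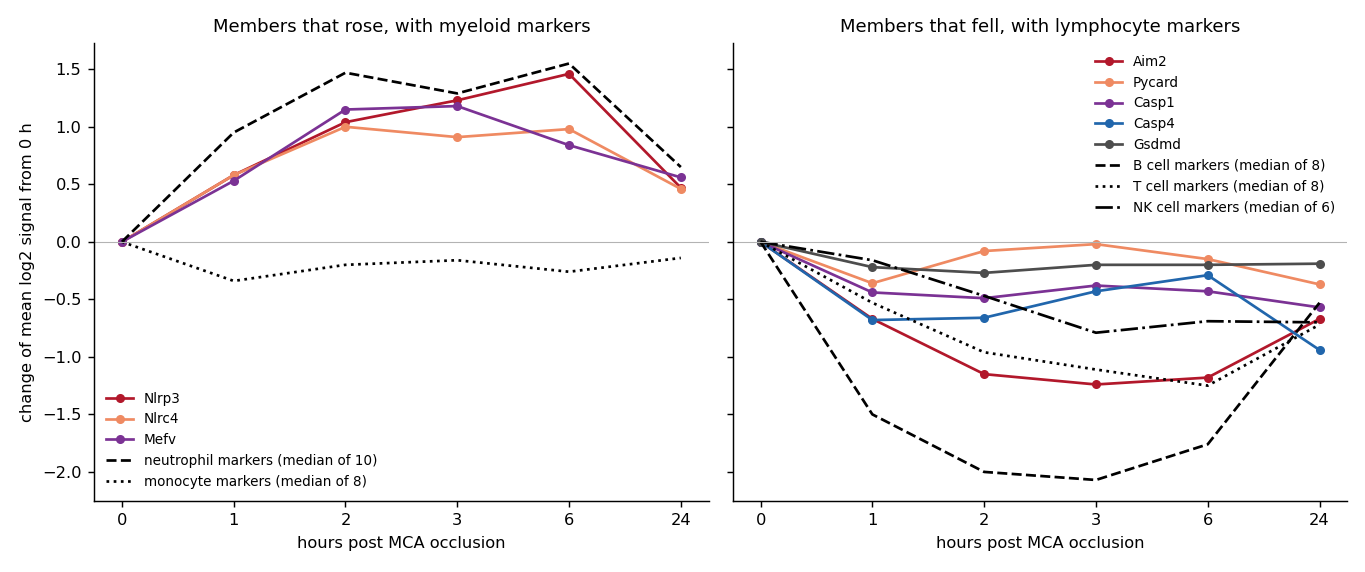
Change of the mean log2 signal from 0 h for the 8 genes (coloured lines) and the median change of each cell type marker list (black lines), with time points at equal distances. The 3 rising sensors run below the neutrophil median, Aim2 runs near the T cell median, and Casp4 turns down at 24 h while the B cell median turns up.

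Other genes of the pathway were taken from 4 lists by role. Of 18 other NOD-like receptor genes, 16 were in the table on 14 probe sets, of which 10 had an F-test FDR below 0.05, against 55.5% of all probe sets. At 2 h, 3 were higher, a share near the background of 21.7%, and 5 were lower, against 18.6%. There were 4 rises (background 22.5%) and 6 falls (19.3%) after 6 h, and 3 (17.4%) and 6 (13.9%) in the last sample. The 4 rises after 6 h were 2 when the lowest 25% of probe sets were left out. The median change of the list at 2 h was 0.05, the same as over all probe sets. Nlrp12, a regulator of NF-κB signalling in myeloid cells, rose most, by 2.34 at 6 h (FDR 9.53e-21), and was still 1.28 above 0 h at 24 h. Nlrx1, a mitochondrial family member, rose by 0.52 at 2 h (FDR 1.93e-08), and Nlrp14 by 0.34 at 3 h (FDR 0.00152) from a low signal. The largest falls were those of Ciita, the regulator of MHC class II genes (-1.19 at 2 h, FDR 2.40e-15), of Nlrc3, an attenuator of T cell and myeloid signalling (-0.73 at 6 h, FDR 1.45e-10), and of the probe set shared by Naip5 and Naip6 (-0.62 at 3 h, FDR 2.30e-08). NAIP proteins bind the bacterial ligands for Nlrc4, so sensor and ligand-binding partner differed in direction, with Nlrc4 at 0.91 at the same time point. Naip5 and Naip6 cannot be told apart on this array.

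Of the genes for priming signals and triggers, 25 of 28 were in the table and 21 had an F-test FDR below 0.05, against 55.5% of all probe sets. Rises numbered 11 after 2 h, 9 after 6 h and 2 after 24 h, where 21.7%, 22.5% and 17.4% of all probe sets rose. The 2 rises after 24 h were 1 with centred means and 4 with quantile normalized means. Falls numbered 5, 8 and 8, where 18.6%, 19.3% and 13.9% of all probe sets fell, so the 5 falls after 2 h were near the background share. Cd14, the lipopolysaccharide coreceptor (1.84 at 3 h, FDR 1.04e-13), Tlr2, a receptor of bacterial lipopeptides (1.69 at 3 h, FDR 8.35e-16), and Myd88, the adaptor of these receptors (0.93 at 6 h, FDR 7.78e-15), rose most. Irf8, a transcription factor of monocytes, dendritic cells and B cells (-1.07 at 2 h, FDR 2.49e-11), Gbp5, an interferon-induced GTPase (-0.88 at 24 h, FDR 3.34e-09), and Zbp1, a sensor of nucleic acids (-0.84 at 24 h, FDR 2.87e-10), fell most. Nek7, the kinase that binds Nlrp3 during its activation, fell at each time point, by 0.76 at 6 h (FDR 4.29e-07), while Nlrp3 was at its highest. Txnip, which has been proposed as a ligand of Nlrp3, was lower at 3 h (-0.47, FDR 1.53e-05). P2rx7, the ATP-gated channel upstream of potassium efflux, had changes between -0.13 and 0.02, none past the test.

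Of the partners and inhibitors, 21 of 22 were in the table and 16 had an F-test FDR below 0.05, against 55.5% of all probe sets. The list had 5 rises and 6 falls after 2 h (background 21.7% and 18.6%), 7 and 5 after 6 h (22.5% and 19.3%), and 4 and 5 after 24 h (17.4% and 13.9%). Its rises after 2 and 24 h and its falls after 6 h were near these shares. Serpinb1a, an inhibitor of neutrophil serine proteases that also restrains inflammatory caspases, had the largest change of all 4 lists, 3.50 at 6 h (FDR 1.09e-20), and remained at 1.41 at 24 h. Pstpip1, a binding partner of pyrin, rose by 0.85 at 2 h (FDR 5.91e-12), when Mefv stood at 1.15, and Pstpip2 by 0.76 at 6 h (FDR 3.08e-09). Bcl2, an inhibitor of apoptosis (-1.55 at 6 h, FDR 7.96e-14), and Serpinb9, an inhibitor of granzyme B (-0.84 at 6 h, FDR 2.02e-08), had the largest falls.

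Of the cytokine and lysis outputs, 20 of 21 were in the table and 19 had an F-test FDR below 0.05, against 55.5% of all probe sets. After 2 h, 12 were higher and 4 lower, against 21.7% and 18.6% of all probe sets. After 6 h the counts were 9 and 2 (background 22.5% and 19.3%), and after 24 h they were 5 and 7 (17.4% and 13.9%). The 4 falls after 2 h were near the background share, and the 5 rises after 24 h were 1 with centred means and 2 with quantile normalized means. Il1b, the main cytokine substrate of caspase-1, was higher at each time point, by 0.92 at 6 h (FDR 2.25e-09) and 0.72 at 24 h (FDR 1.26e-06), so this substrate rose while Casp1 fell. Il18, the other substrate, was lower at 1 h (-0.35, FDR 0.0234) and 24 h (-0.38, FDR 0.0166) only. The probe set shared by Il18bp, whose product neutralizes IL-18, and Rnf121 fell by 0.67 at 2 h (FDR 6.36e-08). Il1a had a mean signal of 4.22 and was higher at 2 h (0.24, FDR 0.0155) and 3 h (0.25, FDR 0.0115). Dfna5 (gasdermin E), another pore-forming gasdermin, rose by 0.89 at 2 h (FDR 2.84e-09), the reverse of Gsdmd at the same time point. Ripk3, the kinase that activates necroptosis, rose by 0.85 at 2 h (FDR 2.60e-10) and had a change of -0.14 at 24 h (FDR 0.27).

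**Figure D3:**
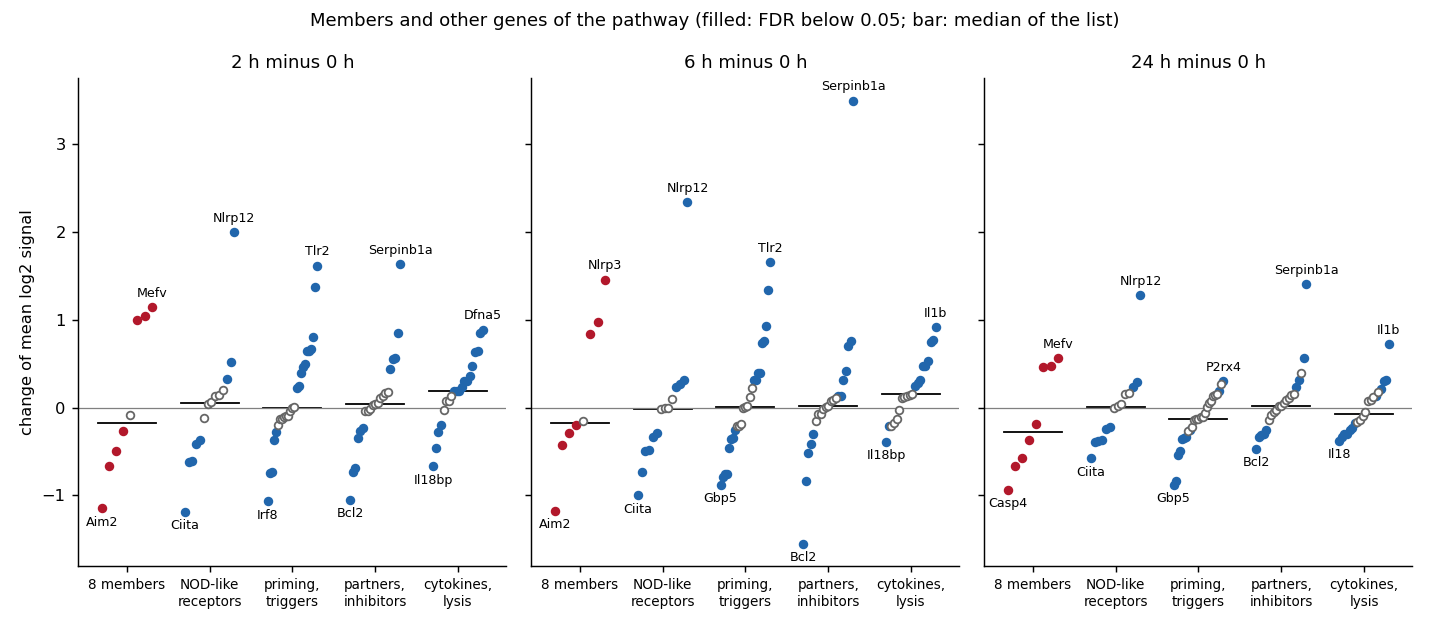
Change of the mean log2 signal from 0 h at 2, 6 and 24 h for the 8 members (red) and the probe sets of 4 lists of other pathway genes (blue). Each point is 1 probe set, filled where its FDR was below 0.05 and open otherwise, bars are list medians, and the lowest and highest gene of each list is named. List medians lie near 0 with single genes far to either side, such as Serpinb1a at 3.50 and Bcl2 at -1.55 at 6 h.

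The genes whose 5 changes from 0 h lay nearest to those of a member were found by the root mean square difference among 3597 symbols with a largest change of at least 0.5. They share the same arrays, and likeness over 6 means is a description. Nearest to Nlrp3 were Rab24 (root mean square difference 0.065), Msl1 (0.079) and Pxk (0.083), and nearest to Nlrc4 were Tmem154 (0.042), Stxbp2 (0.075) and Pygl (0.078). Aim2 had Setdb2 (0.047), Jup (0.055) and Cse1l (0.056). Mefv and Casp4 had no gene as close: Atrnl1 stood at 0.100 from Mefv, and B4galt5 at 0.140 from Casp4. For Casp1 the nearest were Tmtc3 (0.056), Stx8 (0.062) and Ptbp1 (0.067). Members were left out of each other's search. Rab24, a small GTPase linked to autophagy, had changes of 0.96 at 2 h and 0.47 at 24 h, next to 1.04 and 0.47 for Nlrp3. Pygl, the glycogen phosphorylase of liver and leukocytes, rose by 0.96 at 2 h and 1.03 at 6 h, next to 1.00 and 0.98 for Nlrc4.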

How the data were processed

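Blood mRNA of 47 samples was hybridized to Affymetrix RaGene 1.0 ST arrays. The authors made log2 signals by RMA, which corrects background, quantile normalizes and summarizes the probes of a probe set, and deposited their mean and SD per time point for 27596 probe sets, of which 21406 carry a symbol of the annotation on rn5. The submitters' processing notes name limma. The table has 47 columns of single arrays, named by a running number that the labels do not tie to a rat and a time, and these were not used, nor were 19 columns of the authors' own fold changes, p-values, FDRs and F-tests. Precision is set by the 7 or 8 arrays behind each mean.

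Group-means models were built from these means, SDs and numbers of arrays and tested with limma 3.58.1 in R 4.3.3 (eBayes, 41 residual degrees of freedom, Benjamini-Hochberg over all probe sets, two-sided). All 15 pairs of time points share 1 variance per probe set. Rats sampled repeatedly are taken as independent. The code was tested on simulated data, where it gave limma's p-values. Probe sets with several symbols count for each. For a symbol with several probe sets, that of highest mean was used. Members, lists and tests were chosen with earlier results of these data known. Named genes are the members, the 3 largest passing rises and falls per list, a few fixed partners (Il1b, Il1a, Il18, Naip6, Txnip, P2rx7, Nek7, Pstpip1), and the 3 nearest profiles of each member that changed by at least 0.5. Of these, some list genes are not reported here, and the further nearest profiles of Mefv and Casp4 are Wipi1, Vps26b, Idi1 and Tbc1d9. Alternatives were centring, quantile normalization of the means, an ordinary test, an intensity trend with robust prior, a filter on the lowest 25% of means, the variance of the 2 time points compared and, for the F-test, no 24 h samples.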

Additional observations from a re-analysis of the deposited data

How the results depend on the processing

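Of 432 values of single genes under the alternatives, 422 kept their direction and their side of the FDR threshold and 7 lost the call. The 3 reversals were in values near 0: Pycard at 3 h (0.02 when the means were quantile normalized) and Gsdmd from 3 to 6 h (0.01 with centring or quantile normalization). The count of members lower from 1 to 2 h went from 1 to 0 with centred means (Aim2, FDR 0.0548) and with the ordinary test (FDR 0.0604), and the count higher from 6 to 24 h from 1 to 0 with the variance of the 2 time points compared (Aim2, FDR 0.0663), which also left Mefv at that step with an FDR of 0.0509. Among the lists, the other NOD-like receptors higher at 6 h were 2 without the lowest 25% of probe sets, where fewer probe sets of the list were tested. Priming genes higher at 24 h numbered 1 with centring and 4 with quantile normalization, and cytokine and lysis outputs higher at 24 h 1 and 2. The cause was not tested. The other 117 of 120 member counts stayed within a factor of 1.5.

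No paired analysis was possible because the labels do not match the single-array columns to rats, so the fit with rat as a block was not run. The planned swap to another probe set was not run either, as each member has 1. How far each array's signal stood above background was not examined.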
